A study of Mus musculus with 14 samples.

Results

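The effect of deleting Rnaseh2b in intestinal epithelium that already lacked Atg16l1 was read from RNA sequencing of mouse small intestinal organoids, by comparing 4 Atg16l1/Rnaseh2b double knockout libraries (double KO, Atg16l1/Rnaseh2b ΔIEC in the study) with 4 Atg16l1 knockout libraries (Atg16l1 KO, Atg16l1 ΔIEC). These are 8 of the 14 libraries in the series, which also holds 4 wild-type (WT) libraries and 2 Rnaseh2b knockout libraries (Rnaseh2b KO). Both compared genotypes carried ATG16L1flox/flox with VillinCre+/-, a recombinase driven by a promoter active along the intestinal epithelium, and the double KO carried RNaseH2Bflox/flox in addition. WT organoids had ATG16L1flox/flox and RNaseH2Bflox/flox without Cre, and Rnaseh2b KO organoids had RNaseH2Bflox/flox with VillinCre+/-. Organoids were grown from small intestinal crypts in Matrigel and Intesticult medium, received no treatment that the labels name, and their donors' age and number are not given in the sources used here. Where nothing says that libraries came from separate mice, p-values measure only the spread between libraries, which may be technical. Of 18781 genes measured, 12804 averaged 3.32 or more in log2 units over the 14 libraries, about 10 on the linear scale, and these were compared.

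RNase H2 removes ribonucleotides that polymerases leave in genomic DNA, and its B subunit, encoded by Rnaseh2b, is needed for a stable enzyme. Without it, unrepaired ribonucleotides lead to DNA breaks, and in the gut epithelium the p53 pathway restrains the damaged stem cells. ATG16L1 directs lipidation of LC3 on the growing autophagosome, and Paneth cells, the antimicrobial cells of the crypt base, are the epithelial cells best known to depend on it. A crypt organoid holds Lgr5+ stem cells, absorptive enterocytes, and secretory Paneth, goblet, enteroendocrine and tuft cells, so its RNA reflects both how many cells of each type are present and how much RNA each makes. In bulk libraries fewer cells of a type and less RNA per cell cannot be told apart.

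All 4 Atg16l1 KO libraries were sequenced in lane 2, whereas double KO 1 and 2 were in lane 2 and double KO 3 and 4 in lane 1. Libraries 1 and 2 of a genotype deviated together from their group mean, as did 3 and 4, with correlations across genes of 0.309 and 0.583 in Atg16l1 KO and 0.513 and 0.849 in double KO. Xist was above 13 in Atg16l1 KO 1 and 2 and in double KO 3 and 4 and below 8 in the other 4 of these libraries. Y-linked genes ran the opposite way, so both compared genotypes held a female and a male pair of libraries. Atg16l1 KO held both sexes in lane 2, and WT held both in lane 1. In double KO the pair, the lane and the sex coincide and cannot be told apart. For this reason each result is given from the fit across all 14 libraries (limma, Benjamini-Hochberg adjustment at 0.05), followed where the call changed by the fit in which libraries 1 and 2 and libraries 3 and 4 of a genotype are treated as correlated pairs (pairs as a random effect, consensus correlation 0.645). A fit with lane as a covariate estimates the difference from double KO 1 and 2, the pair that shares lane 2 with Atg16l1 KO. That pair is male by Xist, whereas Atg16l1 KO held both sexes, so sex is unbalanced in the lane fit. The Xist difference was 0.14 in the fit of all libraries and -2.90 with lane as a covariate. The 10 epithelial identity genes, such as Epcam and Vil1, were all expressed, and of 13 measured stromal, endothelial and immune markers 9 were below the expression filter, Ptprc, Cd3e and Col1a2 among them. The summed linear level of those 13 markers was 315.7 to 416.2 in Atg16l1 KO and 363.3 to 408.6 in double KO.

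The targeted gene first. Rnaseh2b, on GRCm38 chromosome 14 from 62292589 to 62372992, was 8.71, 8.72, 8.58 and 8.48 on the log2 scale in Atg16l1 KO 1 to 4 and 7.92, 7.68, 7.79 and 7.84 in double KO 1 to 4. Every double KO library lay below every Atg16l1 KO library, and the fall was 1.76-fold (a log2 fold change of -0.81 ± 0.08 (SE), adjusted p = 3.30e-05 by limma). An exact two-sided permutation test gave p = 0.029, the smallest that 4 against 4 libraries allow. That test, here and below, treats single libraries as exchangeable and makes no allowance for the correlated pairs. The limma call remained with pairs as a random effect (adjusted p = 0.00254). The 2 Rnaseh2b KO libraries were lower still, at 7.21 and 7.15. A gene-level value includes exons outside the deleted part, so it does not measure how many cells had lost the gene.

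The autophagy gene that both genotypes should lack also differed. Atg16l1 (chromosome 1, 87755870 to 87792428) was 6.87, 7.35, 6.75 and 6.74 in Atg16l1 KO and 8.37, 8.14, 8.57 and 8.47 in double KO, against 9.46 ± 0.05 (SD, n = 4) in WT. Both knockout groups were below WT, but double KO retained 2.76-fold more Atg16l1 transcript than Atg16l1 KO (a log2 fold change of 1.46 ± 0.12 (SE), adjusted p = 1.96e-05 by limma; exact permutation p = 0.029), and it kept this call with pairs as a random effect (adjusted p = 0.00104). The comparison therefore differs in residual Atg16l1 transcript as well as in Rnaseh2b, and the part of that difference in the results that follow was not tested.

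**Figure D1:**
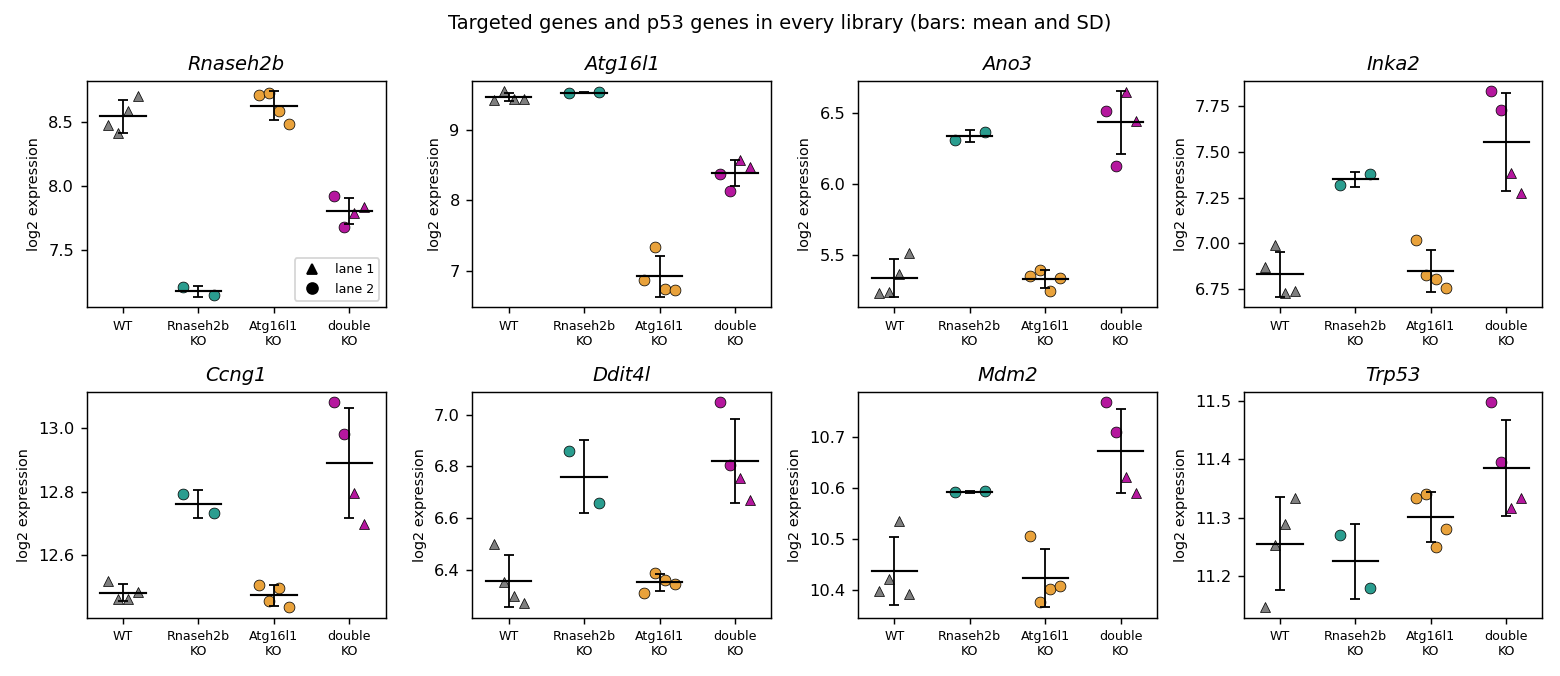
Log2 expression (vertical axes) of both targeted genes and 6 p53 genes in each of the 14 libraries, by genotype, with circles for lane 2, triangles for lane 1 and bars for mean and SD. Rnaseh2b was lowest in Rnaseh2b KO, Atg16l1 was lower in Atg16l1 KO than in double KO, and 4 p53 targets, Ano3, Inka2, Ccng1 and Ddit4l, were higher in both groups that lack Rnaseh2b than in the groups that retain it.

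Across the 12804 genes, 1616 were higher in double KO (12.6% of those tested) and 1602 were lower (12.5%) by limma. A rise or fall compares the 2 knockout groups and does not say which of them departed from WT. Most changes were small. The median size among the calls was 0.22 on the log2 scale, 2873 of the 3218 were under 0.5 and 41 were over 1. The 4 double KO libraries did not overlap the 4 Atg16l1 KO libraries in 1547 genes that were higher (12.1%) and 1514 that were lower (11.8%), and 2497 of the calls were of this kind. With pairs as a random effect 245 genes were higher (1.91%) and 233 lower (1.82%), all 478 of them among the 3218 and in the same direction.

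Target genes of p53 rose. p53 is the transcription factor that damaged DNA stabilises, and Ccng1, Mdm2, Phlda3 and Inka2 are among its direct targets. Of 35 tested p53 targets, 17 rose and 2 fell, with a median log2 fold change of 0.16 against 0.00 over all genes. Of the 6 p53 genes that the study names, 5 rose and none fell, although that list was drawn up with the study's results known and is not independent evidence of its direction. The longer list shares genes with it, Ano3 and Inka2 among them, so it is not independent of the study either. The largest rise was in Ano3, a membrane protein of the anoctamin family. Ano3 was 5.35, 5.40, 5.24 and 5.34 in Atg16l1 KO 1 to 4 and 6.52, 6.13, 6.65 and 6.44 in double KO 1 to 4, a 2.15-fold rise (a log2 fold change of 1.10 ± 0.09 (SE), adjusted p = 1.96e-05). Every double KO library exceeded every Atg16l1 KO library.

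Inka2, an inhibitor of the kinase PAK4, was 7.01, 6.82, 6.80 and 6.76 in Atg16l1 KO and 7.83, 7.73, 7.38 and 7.27 in double KO (a log2 fold change of 0.71 ± 0.11 (SE), adjusted p = 0.00119). Ccng1, which encodes cyclin G1, was 12.50, 12.46, 12.49 and 12.43 and 13.08, 12.98, 12.80 and 12.70 (a log2 fold change of 0.42 ± 0.06 (SE), adjusted p = 9.71e-04). In both genes the groups did not overlap, and double KO 1 and 2 were above double KO 3 and 4. Phlda3, a repressor of AKT signalling, rose by 0.59 ± 0.06 (SE, adjusted p = 4.96e-05). These 4 genes, Ano3, Inka2, Ccng1 and Phlda3, are the p53 targets that remained past the threshold with pairs as a random effect (adjusted p = 0.00251, 0.0139, 0.0133 and 0.00564). All but Phlda3 are also genes that the study names.

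Other targets rose in the fit of all libraries and did not pass with pairs as a random effect. Mdm2, the ubiquitin ligase that degrades p53, was 10.51, 10.38, 10.40 and 10.41 in Atg16l1 KO and 10.77, 10.71, 10.62 and 10.59 in double KO, without overlap (a log2 fold change of 0.25 ± 0.05 (SE), adjusted p = 0.00251, and adjusted p = 0.0744 with pairs as a random effect). Ddit4l, an inhibitor of mTORC1, was 6.31, 6.39, 6.36 and 6.35 and 7.05, 6.80, 6.75 and 6.67 (a log2 fold change of 0.47 ± 0.08 (SE), adjusted p = 0.00153, and 0.0582 with pairs as a random effect). Plk2, a stress-induced kinase, rose by 0.50 ± 0.12 (SE, adjusted p = 0.00931, and 0.0591 with pairs as a random effect). The cell-cycle inhibitor p21, encoded by Cdkn1a, did not pass: Cdkn1a was 12.35, 12.45, 12.67 and 12.64 in Atg16l1 KO 1 to 4 and 12.47, 12.78, 12.85 and 12.82 in double KO 1 to 4, with overlapping groups (a log2 fold change of 0.20 ± 0.08 (SE), adjusted p = 0.0894). Nor did Trp53 itself (a log2 fold change of 0.09 ± 0.05 (SE), adjusted p = 0.2). Sesn1 and Cgref1 are the 2 list members that fell, by 0.23 and 0.29 on the log2 scale, neither past the threshold with pairs as a random effect (adjusted p = 0.0572 and 0.166).

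Promoter sequence is shown for Ccng1, since among 27 p53 targets with a RefSeq promoter window only it and Cdkn1a held a close match to the p53 response element, 2 half-sites of 10 bases with a spacer of at most 3 bases and at most 1 mismatch. A match this close was in 0.219% of all 32851 windows of 300 bases, which run from 250 bases before a gene's start to 50 after it. The stretch lies at chr11:40755437-40755536 (GRCm38.p6, minus strand) and covers bases -250 to -151 from the start, and capitals mark the matching element.
Ccng1: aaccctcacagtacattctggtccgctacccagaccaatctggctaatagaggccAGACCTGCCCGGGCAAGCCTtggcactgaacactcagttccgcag
Of the 15 p53 targets with a window that rose, 1 had such a match, as did 1 of the 12 that did not rise. A match is a description of the letters and says nothing of occupancy in these cells.

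The 12 largest rises and 11 of the 12 largest falls without overlap between the groups spanned 1.96 to -1.46 on the log2 scale. Among the rises, Akp3, an intestinal alkaline phosphatase, came first. Akp3 was 8.16, 8.06, 8.07 and 8.02 in Atg16l1 KO 1 to 4 and 9.58, 9.82, 10.50 and 10.27 in double KO 1 to 4, a 3.9-fold rise (a log2 fold change of 1.96 ± 0.30 (SE), adjusted p = 9.19e-04). The gene lies 628 kb from Atg16l1 on chromosome 1. 2210407C18Rik followed, at 10.88, 10.84, 9.89 and 10.10 in Atg16l1 KO and 11.66, 11.67, 12.75 and 12.53 in double KO (a log2 fold change of 1.72 ± 0.27 (SE), adjusted p = 0.00118), with double KO 3 and 4 highest.

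4 of the 12 rises are genes that mark the regenerating or fetal-like gut epithelium. Clu, the clusterin gene of revival stem cells, was 7.75, 8.54, 7.40 and 7.10 in Atg16l1 KO and 9.54, 9.30, 9.61 and 9.10 in double KO (a log2 fold change of 1.69 ± 0.32 (SE), adjusted p = 0.0031). Ly6a, which encodes Sca-1, was 7.31, 7.68, 6.86 and 6.95 and 7.89, 8.06, 9.22 and 8.88 (a log2 fold change of 1.31 ± 0.33 (SE), adjusted p = 0.0121). Anxa1, the gene for the anti-inflammatory protein annexin A1, was 7.66, 8.05, 6.86 and 6.93 and 8.96, 8.60, 9.07 and 8.63 (a log2 fold change of 1.44 ± 0.33 (SE), adjusted p = 0.00816). In all of these the lowest double KO library was above the highest Atg16l1 KO library, while libraries within a genotype spread widely. Msln (mesothelin) rose by 1.60 ± 0.44 (SE, adjusted p = 0.0197). Only Anxa1 of the 4 passed with pairs as a random effect (adjusted p = 0.043, against 0.059 for Clu, 0.0741 for Msln and 0.0512 for Ly6a). In the fit with lane, Msln and Ly6a were at 1.24 (adjusted p = 0.0861) and 0.78 (adjusted p = 0.075).

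The remaining rises held their call with pairs as a random effect. Anxa10, another annexin, was 7.69, 8.18, 7.38 and 7.56 in Atg16l1 KO and 8.96, 8.68, 9.63 and 9.42 in double KO (a log2 fold change of 1.47 ± 0.21 (SE), adjusted p = 5.65e-04). Tent5c, a poly(A) polymerase, was 8.23, 8.26, 7.53 and 7.53 and 9.92, 9.26, 8.68 and 8.64 (a log2 fold change of 1.24 ± 0.26 (SE), adjusted p = 0.00578). Phlda1, a pleckstrin homology-like domain gene expressed in crypt stem cells, was 8.91, 9.32, 9.20 and 9.13 and 10.26, 10.19, 10.48 and 10.44 (a log2 fold change of 1.20 ± 0.10 (SE), adjusted p = 1.96e-05). Tent5c was higher in libraries 1 and 2 of both compared genotypes than in 3 and 4, a split that Phlda1 did not show. The predicted gene Gm12888 rose by 1.20 ± 0.22 (SE, adjusted p = 0.00232).

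The falls were led by Reg3a, an antimicrobial C-type lectin. Reg3a was 8.54, 8.48, 9.72 and 8.84 in Atg16l1 KO 1 to 4 and 7.51, 8.08, 6.95 and 7.21 in double KO 1 to 4 (a log2 fold change of -1.46 ± 0.29 (SE), adjusted p = 0.00367). It did not pass with pairs as a random effect (adjusted p = 0.0631). Rnf144b, a ubiquitin ligase gene, was the most uniform fall, at 9.19, 8.98, 9.18 and 9.39 in Atg16l1 KO and 8.02, 8.13, 8.01 and 7.94 in double KO (a log2 fold change of -1.16 ± 0.08 (SE), adjusted p = 5.17e-06, and 4.81e-04 with pairs as a random effect). Myl9, a myosin regulatory light chain, was 8.33, 8.70, 8.10 and 7.92 and 6.93, 7.07, 6.90 and 7.05 (a log2 fold change of -1.28 ± 0.18 (SE), adjusted p = 5.65e-04). Neither group of libraries overlapped the other in these genes. Mean levels in WT were 7.68 for Reg3a and 8.09 for Rnf144b, nearer to double KO, and 8.11 for Myl9, nearer to Atg16l1 KO.

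Genes of enterocyte metabolism were also among the falls. Fbp1, the gluconeogenic fructose bisphosphatase, was 10.40, 10.65, 11.30 and 10.92 in Atg16l1 KO and 9.61, 10.08, 9.46 and 9.61 in double KO, a 2.18-fold fall (a log2 fold change of -1.12 ± 0.17 (SE), adjusted p = 9.40e-04). Bco1, which cleaves beta-carotene to retinal, was 9.42, 9.42, 10.59 and 10.12 and 8.99, 9.20, 8.28 and 8.24 (a log2 fold change of -1.21 ± 0.26 (SE), adjusted p = 0.00609). In both genes the lowest library was double KO 3 or 4 and the highest was Atg16l1 KO 3. Zfp462, a zinc finger gene, fell by 1.18 and Nlrc3, a negative regulator of innate signalling, by 1.25 on the log2 scale (adjusted p = 0.00341 and 0.00678). The pseudogene Slc22a13b-ps fell by 1.34 (adjusted p = 0.00247), and its reads may be shared with related transporter genes. Bst1, an ectoenzyme of NAD metabolism, Ndufa4l2, a mitochondrial protein, and the predicted gene Gm29797 fell by 1.13, 1.10 and 1.19, and none of the 3 passed with pairs as a random effect (adjusted p = 0.0519, 0.0609 and 0.0812). Gm29797 was 6.02, 6.06, 4.93 and 4.15 in Atg16l1 KO, against 4.15, 4.14, 4.05 and 4.06 in double KO, so that Atg16l1 KO 4 was level with double KO. In all, 9 of the 12 rises and 7 of these 11 falls passed with pairs as a random effect.

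**Figure D2:**
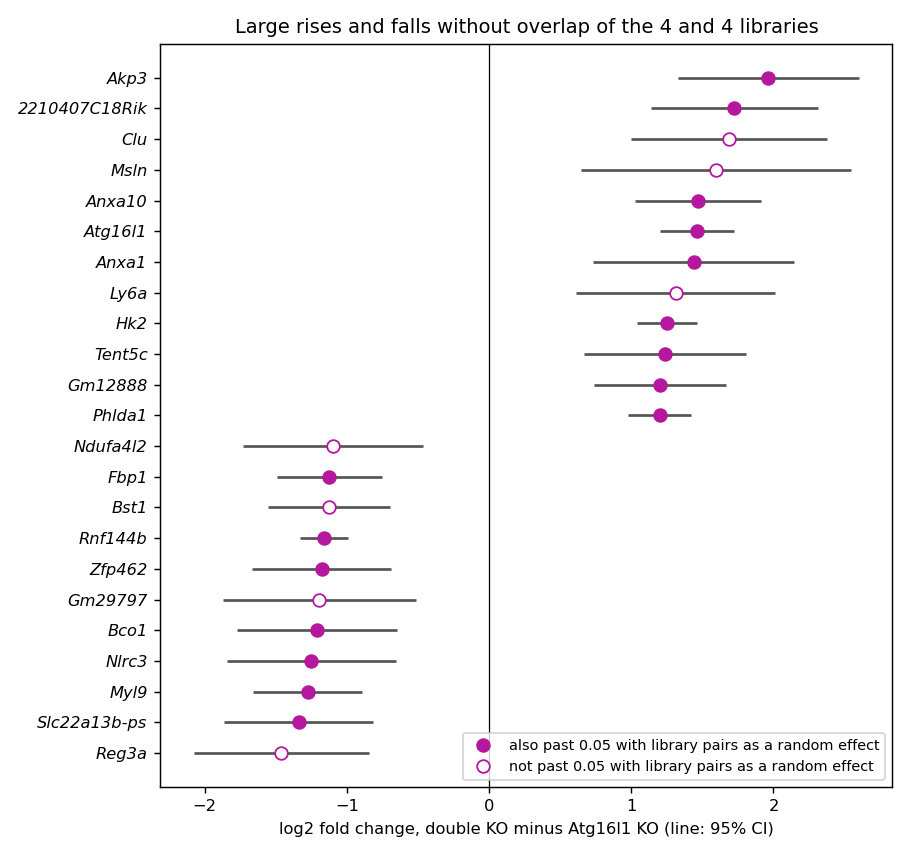
Log2 fold change of double KO minus Atg16l1 KO (horizontal axis) with its 95% confidence interval for the 12 largest rises and 11 of the 12 largest falls whose libraries do not overlap. Filled points, 16 of the 23, also passed with library pairs as a random effect, and open points did not.

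Part of the list of hypoxia and glycolysis genes rose, and other members did not. The factor HIF1 binds the core letters ACGTG and induces glucose uptake, the regulatory enzymes of glycolysis and its own prolyl hydroxylases. Of 29 tested hypoxia and glycolysis genes, 13 rose and 1 fell, with a median log2 fold change of 0.25, and 8 rises remained with pairs as a random effect. Hk2, the hexokinase that traps glucose in the cell, was 9.72, 9.66, 9.38 and 9.52 in Atg16l1 KO and 10.64, 10.67, 11.02 and 10.97 in double KO, a 2.38-fold rise (a log2 fold change of 1.25 ± 0.10 (SE), adjusted p = 1.57e-05). Pfkfb3, which makes the activator of phosphofructokinase, was 10.12, 9.83, 9.68 and 9.79 and 10.64, 10.92, 10.998 and 10.98 (a log2 fold change of 1.03 ± 0.11 (SE), adjusted p = 9.04e-05). Adm, the vasoactive peptide adrenomedullin, was 7.10, 7.41, 7.64 and 7.65 and 8.20, 8.42, 8.90 and 8.98 (a log2 fold change of 1.18 ± 0.18 (SE), adjusted p = 0.0011). In each gene the groups were clearly apart, and in each double KO 3 and 4 were the highest of the compared libraries. Means in WT, all in lane 1, were 10.98 for Hk2, 11.26 for Pfkfb3 and 9.14 for Adm. The double KO means were below these, at 10.82, 10.88 and 8.63.

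Ankrd37, a HIF1 target of little-known function, was 9.21, 9.32, 9.31 and 9.31 in Atg16l1 KO and 9.67, 10.05, 10.14 and 10.18 in double KO (a log2 fold change of 0.72 ± 0.10 (SE), adjusted p = 4.10e-04). Slc2a1, the glucose transporter GLUT1, Ddit4, an inhibitor of mTORC1, Kdm3a, a histone demethylase, and Egln1, a prolyl hydroxylase acting on HIF1, rose by 0.68, 0.68, 0.41 and 0.25, and all 4 passed with pairs as a random effect (adjusted p = 0.0275, 0.0123, 0.0139 and 0.031). The enzymes that carry out the later glycolytic steps did not move with them. Aldoa was 15.71, 15.86, 15.88 and 15.85 and 15.53, 15.82, 15.98 and 16.02 (a log2 fold change of 0.01 ± 0.09 (SE), adjusted p = 0.931), and Ldha, Pgk1 and Tpi1 were at -0.02, -0.01 and -0.02, none past the threshold. Pfkfb4, a paralogue of Pfkfb3, was the 1 list member that fell, by 0.57 (adjusted p = 0.00105). With lane as a covariate the list had 11 rises and 4 falls with a median of 0.05, and Hk2, Adm and Pfkfb3 kept 1.08, 0.86 and 0.92 (adjusted p = 3.43e-05, 0.00367 and 5.33e-04). Background rates in that fit were 15.6% higher and 15.4% lower.

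The letters ACGTG, read on either strand (as ACGTG or CACGT), were in 21 of the 38 RefSeq promoter windows of hypoxia and glycolysis genes (55.3%) and in 19.6% of all 32851 windows. Counted by gene, 18 of 26 genes had the letters in at least 1 window. They were in 10 of the 12 list genes that rose and in 8 of the 14 that did not. Upstream stretches of 4 genes that rose are shown to place the letters, each running from base -100 to base -1 before the start on GRCm38.p6, with the letters in capitals. Hk2 is at chr6:82774455-82774554 (minus strand), Pfkfb3 at chr2:11502091-11502190 (minus strand, 1 of its windows), Slc2a1 at chr4:119108645-119108744 (plus strand) and Ankrd37 at chr8:45999851-45999950 (minus strand).
Hk2: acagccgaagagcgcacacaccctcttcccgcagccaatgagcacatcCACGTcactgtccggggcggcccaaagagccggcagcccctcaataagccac
Pfkfb3: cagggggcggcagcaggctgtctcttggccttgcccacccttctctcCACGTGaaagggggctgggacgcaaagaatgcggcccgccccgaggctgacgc
Slc2a1: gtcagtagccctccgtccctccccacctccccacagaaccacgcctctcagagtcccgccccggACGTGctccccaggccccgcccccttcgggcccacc
Ankrd37: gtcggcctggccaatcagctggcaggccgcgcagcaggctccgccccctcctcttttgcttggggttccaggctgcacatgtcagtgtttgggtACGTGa
The letters begin at base -52 in Hk2, -53 in Pfkfb3 (where the 2 orientations overlap), -36 in Slc2a1 and -6 in Ankrd37. The letters also occur before members of the list that did not pass, so their presence does not separate the genes that rose.

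Crypt stem cell genes were higher in double KO. Of 17 tested, 11 rose and 1 fell, with a median log2 fold change of 0.32, and 4 rises remained with pairs as a random effect. Ascl2, a transcription factor that maintains stem cell identity, was 6.40, 6.41, 6.24 and 6.05 in Atg16l1 KO and 7.12, 7.06, 7.15 and 6.99 in double KO (a log2 fold change of 0.81 ± 0.09 (SE), adjusted p = 1.83e-04). Lgr5, the R-spondin receptor that marks these cells, was 11.89, 11.94, 11.82 and 11.87 and 12.39, 12.30, 12.66 and 12.66 (a log2 fold change of 0.62 ± 0.11 (SE), adjusted p = 0.0018). Axin2, a feedback target of Wnt signalling, was 10.76, 10.69, 10.03 and 10.16 and 11.42, 11.22, 10.95 and 10.91 (a log2 fold change of 0.71 ± 0.15 (SE), adjusted p = 0.00593). The groups did not overlap in any of these 3 genes. Mean levels in WT were 6.79 for Ascl2, 12.725 for Lgr5 (above the double KO mean of 12.50) and 10.935 for Axin2. Slc12a2, a chloride cotransporter of the crypt base, rose by 0.50 (adjusted p = 0.00142). Not all markers moved: Prom1 was at -0.04 (adjusted p = 0.448), Olfm4 was at -0.28 (adjusted p = 0.466) and Aqp4 fell by 0.30 (adjusted p = 0.00746, and 0.0666 with pairs as a random effect). Myc, a Wnt target placed in the proliferation list, was 9.74, 9.55, 9.46 and 9.44 and 10.78, 10.69, 10.29 and 10.34 (a log2 fold change of 0.98 ± 0.10 (SE), adjusted p = 6.07e-05, and 7.90e-04 with pairs as a random effect).

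Secretory markers were also higher. All 10 tested goblet cell genes were higher in double KO and 8 passed, with a median of 0.48. Fcgbp, a mucus-linked protein, was 14.85, 14.72, 14.57 and 14.86 in Atg16l1 KO and 15.75, 15.66, 15.67 and 15.57 in double KO (a log2 fold change of 0.91 ± 0.14 (SE), adjusted p = 0.00112). Spink4, a serine peptidase inhibitor, and Tff3, a trefoil peptide of mucus, rose by 0.80 and 0.80 (adjusted p = 0.00113 and 5.01e-04). These 3 passed with pairs as a random effect. Zg16, a mucus lectin, was 10.04, 9.50, 9.98 and 10.22 and 11.07, 11.10, 10.22 and 10.10, so that double KO 3 and 4 overlapped Atg16l1 KO (a log2 fold change of 0.69 ± 0.22 (SE), adjusted p = 0.0347, and 0.176 with pairs as a random effect). The gel-forming mucin gene Muc2 rose by 0.50 (adjusted p = 0.0302, and 0.132 with pairs as a random effect).

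Of 16 tested Paneth cell genes 8 rose and 1 fell, with a median of 0.45, and Itln1, Habp2 and Ang4 passed with pairs as a random effect. Itln1, a lectin that binds microbial sugars, was 14.08, 13.97, 13.49 and 13.59 in Atg16l1 KO and 14.98, 14.63, 14.72 and 14.58 in double KO (a log2 fold change of 0.94 ± 0.12 (SE), adjusted p = 4.34e-04). The defensin genes Defa24 and Defa17 rose by 0.88 and 0.75 (adjusted p = 0.00344 and 0.0147, and 0.0631 and 0.131 with pairs as a random effect), but defensins are near-identical copies and reads may be split between them. Lyz1, the Paneth cell lysozyme, was 12.81, 12.96, 12.004 and 12.04 and 13.13, 12.91, 12.97 and 12.89, and did not pass (a log2 fold change of 0.52 ± 0.19 (SE), adjusted p = 0.0633). Atg16l1 KO 3 and 4 were lower than Atg16l1 KO 1 and 2, which were level with double KO. Reg3g, an antimicrobial lectin related to Reg3a, fell by 0.56 (adjusted p = 0.0338), and passed neither with pairs as a random effect (adjusted p = 0.229) nor in the lane fit, where it was at -0.24 (adjusted p = 0.248).

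The enteroendocrine list was mixed, with 5 of 18 tested genes up and 2 down. Neurog3, the factor that commits cells to this lineage, was 7.72, 7.90, 7.25 and 7.38 in Atg16l1 KO and 8.58, 8.35, 8.56 and 8.50 in double KO (a log2 fold change of 0.94 ± 0.13 (SE), adjusted p = 6.17e-04). Chga, the granule protein chromogranin A, was 11.20, 11.09, 10.75 and 10.92 and 11.83, 11.69, 11.68 and 11.66 (a log2 fold change of 0.72 ± 0.10 (SE), adjusted p = 6.37e-04). Reg4 rose by 0.78 (adjusted p = 0.00109). The hormone genes did not follow as a group. Nts, the neurotensin gene, was 7.37, 7.53, 7.70 and 7.55 and 7.19, 6.84, 6.48 and 6.73 (a log2 fold change of -0.73 ± 0.12 (SE), adjusted p = 0.00136), and Gcg, which encodes proglucagon, was at -0.33 (adjusted p = 0.144). None of 11 tested tuft cell genes passed by limma, as none did with pairs as a random effect, and 1 did with lane as a covariate. Avil, a tuft cell marker, was at -0.01 ± 0.08 (SE).

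Enterocyte genes were lower. Of 31 tested, 13 fell and none rose, with a median log2 fold change of -0.41, and 6 falls remained with pairs as a random effect, those in Khk, Enpep, Npc1l1 and Dpp4 among them. Khk, which phosphorylates fructose, was 13.40, 13.17, 13.76 and 13.66 in Atg16l1 KO and 12.68, 13.05, 12.55 and 12.66 in double KO (a log2 fold change of -0.76 ± 0.15 (SE), adjusted p = 0.0044). The groups did not overlap, with Atg16l1 KO 3 and 4 highest. Lct, the lactase gene, was 10.78, 10.62, 11.58 and 11.44 and 10.42, 10.65, 9.89 and 9.94, with overlap (a log2 fold change of -0.88 ± 0.29 (SE), adjusted p = 0.0384, and 0.11 with pairs as a random effect), and in the lane fit was at -0.57 (adjusted p = 0.19). Fabp1, a fatty acid-binding protein, was 14.60, 14.41, 15.66 and 15.21 and 14.04, 14.74, 14.06 and 14.14 and did not pass (a log2 fold change of -0.73 ± 0.36 (SE), adjusted p = 0.152). Krt20, the keratin of differentiated epithelium, fell by 0.58 (adjusted p = 0.00381, and 0.0555 with pairs as a random effect), whereas Krt8 was at 0.11 and did not pass.

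Summed on the linear scale, the 17 Paneth cell genes in the table ranged from 28525 to 41840 in Atg16l1 KO and from 53074 to 65275 in double KO, and the 11 goblet cell genes from 45152 to 55919 and from 83692 to 100820. Neither pair of ranges overlapped. The 31 enterocyte genes ranged from 341230 to 541340 and from 252940 to 356850, with overlap. In WT, all in lane 1, the Paneth cell sum was 42317 to 43473, between the 2 knockout ranges. The WT goblet cell sum, 62877 to 88648, overlapped double KO only, and the WT enterocyte sum, 295790 to 428770, overlapped both. Tuft cell genes ranged from 714.6 to 808.2 and from 676.7 to 820.7.

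**Figure D3:**
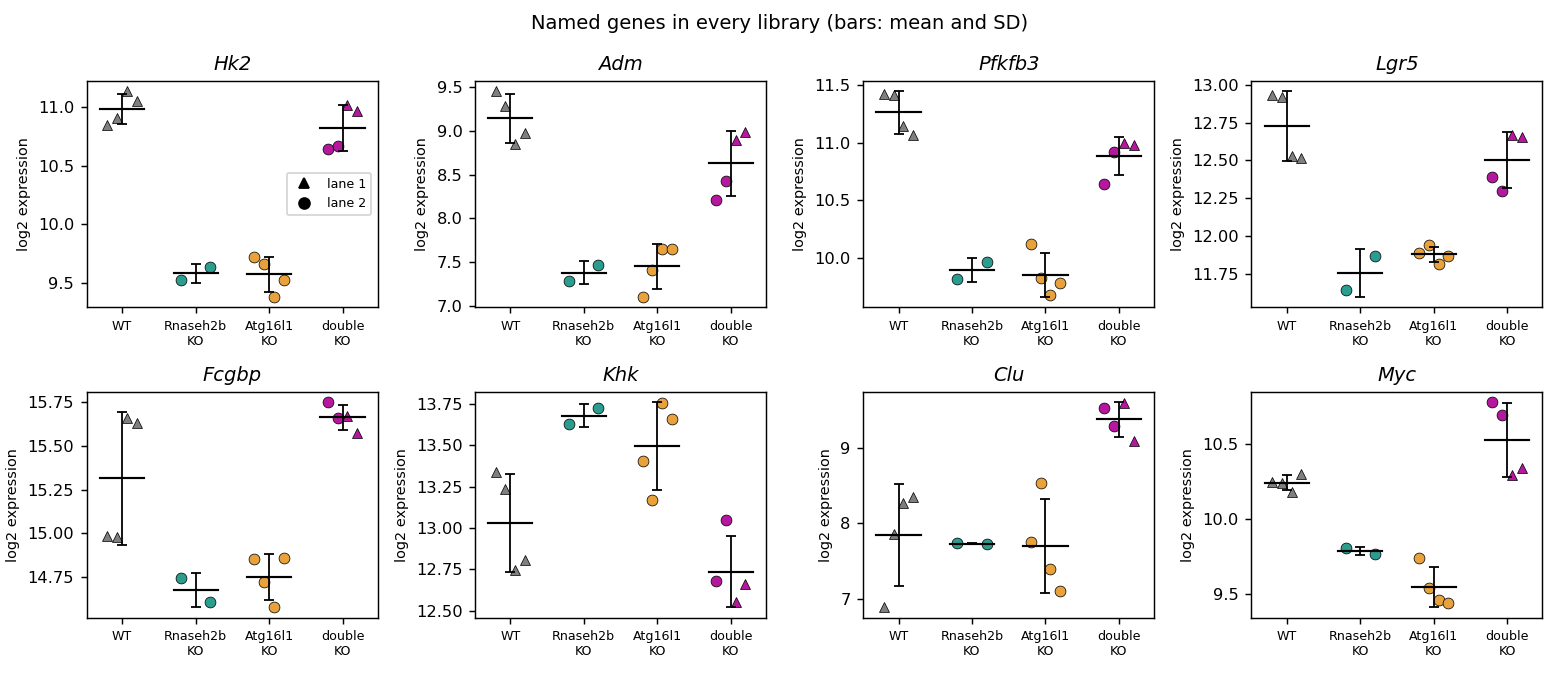
Log2 expression (vertical axes) of 8 named genes in each library, by genotype, with circles for lane 2, triangles for lane 1 and bars for mean and SD. In double KO against Atg16l1 KO, Hk2, Adm, Pfkfb3, Lgr5, Fcgbp, Clu and Myc were higher and Khk lower, without overlap of the 4 and 4 libraries.

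Among 19 tested regenerative and YAP target genes 8 rose and 1 fell, with a median of 0.41. The rises beyond Clu, Msln, Anxa1 and Ly6a included S100a6 at 1.18, which passed with pairs as a random effect (adjusted p = 0.0482). Areg, an EGF receptor ligand, was at 0.16 and did not pass, and Ereg, a related ligand, fell by 0.44 (adjusted p = 0.0344, and 0.133 with pairs as a random effect). With lane as a covariate 3 members rose and the median was 0.16.

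DNA damage signalling and repair genes rose by small amounts. Of 28 tested, 13 rose and 1 fell, with a median log2 fold change of 0.11. Atm, the kinase that responds to double-strand breaks, was 9.27, 9.05, 8.86 and 8.96 in Atg16l1 KO and 9.70, 9.48, 9.36 and 9.34 in double KO (a log2 fold change of 0.44 ± 0.09 (SE), adjusted p = 0.0039). Atr, the kinase that responds to stalled replication, was 9.89, 9.84, 9.78 and 9.81 and 10.22, 10.16, 10.09 and 10.07 (a log2 fold change of 0.31 ± 0.06 (SE), adjusted p = 0.00392), and was the 1 member that passed with pairs as a random effect (adjusted p = 0.0464). Both genes were without overlap. Parp1, a sensor of strand breaks, and Ung, a uracil glycosylase, rose by 0.22 and 0.26 (adjusted p = 0.0114 and 0.0126). Parp2, a paralogue of Parp1, fell by 0.11, and Topbp1, an activator of ATR, was at 0.12 and did not pass.

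In the list of RNase H2 and ribonucleotide processing genes, Rnaseh2b was the 1 member of 13 that fell. The genes for the other subunits, Rnaseh2a and Rnaseh2c, were at -0.02 and 0.00. Top1, which cuts DNA at ribonucleotides that RNase H2 leaves in place, was 11.89, 11.73, 11.73 and 11.70 in Atg16l1 KO and 12.08, 11.98, 11.93 and 11.92 in double KO (a log2 fold change of 0.22 ± 0.04 (SE), adjusted p = 0.0044, and 0.0969 with pairs as a random effect). Pcna and Rrm2 rose by 0.12 and 0.10 (adjusted p = 0.0469 and 0.0448), neither with pairs as a random effect.

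Of 36 proliferation genes 4 rose and 1 fell, with a median of 0.07. The share that rose was no higher than the 12.6% over all genes tested, of which 12.5% fell. With lane as a covariate 12 rose and none fell, against 15.6% and 15.4% of all genes. Besides Myc, Ccnd2, encoding cyclin D2, was 13.35, 13.30, 13.35 and 13.34 in Atg16l1 KO and 13.51, 13.54, 13.66 and 13.59 in double KO (a log2 fold change of 0.24 ± 0.03 (SE), adjusted p = 5.59e-04, and 0.0215 with pairs as a random effect). Cdc6, a replication licensing factor, and Plk1, a mitotic kinase, rose by 0.22 and 0.13 (adjusted p = 0.0406 and 0.0468), and neither passed with pairs as a random effect (adjusted p = 0.211 and 0.305). Mki67 was at 0.00 and Top2a at 0.03 ± 0.04 (SE), neither past the threshold.

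Autophagy genes were called at rates close to those over all genes, 4 of 36 up and 4 down, and 1 of the rises is Atg16l1 itself. Atg9a, the scramblase of the forming autophagosome, was 9.52, 9.47, 9.41 and 9.47 in Atg16l1 KO and 9.76, 9.84, 9.76 and 9.78 in double KO (a log2 fold change of 0.32 ± 0.03 (SE), adjusted p = 9.77e-05, and 0.011 with pairs as a random effect). Atg2b, a lipid transfer protein, rose by 0.23 (adjusted p = 0.00173), and Atg13, a subunit of the initiating kinase complex, fell by 0.21 (adjusted p = 0.0172). Neither passed with pairs as a random effect (adjusted p = 0.0703 and 0.151). The receptor Tax1bp1 was at -0.03.

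Of 23 unfolded protein response genes 9 rose and 2 fell, with a median of 0.09. Sdf2l1, an ER chaperone cofactor, rose by 0.38 (adjusted p = 0.00394) and Ern2, the IRE1 paralogue of mucous cells, by 0.37 (adjusted p = 0.0218). Pdia4, an ER disulphide isomerase, was 11.91, 11.86, 11.78 and 11.75 in Atg16l1 KO and 12.06, 11.97, 12.04 and 12.07 in double KO and was the 1 member past the threshold with pairs as a random effect (a log2 fold change of 0.21 ± 0.04 (SE), adjusted p = 0.00163, and 0.0443). Creld2 rose by 0.20, and the chaperone Hspa5 was at 0.07 and did not pass.

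Interferon-stimulated genes gave different counts according to how lane was treated. In the fit of all libraries 1 of 23 fell and none rose, with a median of -0.08. Parp14, an ADP-ribosyltransferase, was 8.28, 8.33, 8.79 and 8.66 in Atg16l1 KO and 7.88, 7.87, 8.25 and 8.32 in double KO (a log2 fold change of -0.44 ± 0.13 (SE), adjusted p = 0.0248, and 0.0937 with pairs as a random effect). Oasl1 was 9.88, 10.40, 10.59 and 10.52 and 9.61, 10.18, 11.07 and 11.25 (a log2 fold change of 0.18 ± 0.30 (SE), adjusted p = 0.685), so that the double KO pair of lane 1 lay above all Atg16l1 KO libraries and the pair of lane 2 did not. With lane as a covariate 14 of 23 fell, with a median of -0.31, and within lane 2 alone, double KO 1 and 2 against all 4 Atg16l1 KO libraries, 10 fell. Irf7, the master regulator of the response, was 8.81, 8.92, 9.53 and 9.05 and 8.16, 8.35, 8.96 and 9.31, at -0.38 (adjusted p = 0.234) in the fit of all libraries and -0.82 (adjusted p = 0.00773) with lane as a covariate. Ifit1 was 6.39, 6.87, 7.04 and 7.08 and 6.10, 6.42, 7.35 and 7.56, at 0.01 and -0.59 in the same fits. In double KO this lane difference is also the difference between the female and male pair. None of 7 tested cGAS-STING sensing genes passed by limma, and 1 passed with lane as a covariate. Samhd1, a dNTP hydrolase, was at -0.01.

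All 12 tested genes of MHC class I presentation were lower in double KO, and 7 of them passed, with a median of -0.15. Tap2, the peptide transporter, was 8.31, 8.33, 8.58 and 8.59 in Atg16l1 KO and 7.94, 7.999, 8.08 and 8.15 in double KO (a log2 fold change of -0.41 ± 0.07 (SE), adjusted p = 0.00253). Psme1, a proteasome activator subunit, fell by 0.19 (adjusted p = 0.00117), and of the 7 only it and Tap2 passed with pairs as a random effect (adjusted p = 0.0464 and 0.0304). Psmb9 and Psmb10, immunoproteasome subunits, fell by 0.38 and 0.20, and B2m was at -0.12 and did not pass. Of 12 epithelial chemokine and cytokine genes 2 rose and 3 fell. Cx3cl1 (fractalkine) was 11.14, 11.02, 11.29 and 11.28 and 10.61, 10.80, 10.75 and 10.72 (a log2 fold change of -0.46 ± 0.06 (SE), adjusted p = 2.91e-04, and 0.0114 with pairs as a random effect). Ccl9 and Ccl6 rose by 0.68 and 0.58 (adjusted p = 0.00527 and 0.00418), and Il18 fell by 0.51 (adjusted p = 0.0485). Of these 3, Ccl6 passed with pairs as a random effect (adjusted p = 0.0359) and Ccl9 and Il18 did not (adjusted p = 0.0721 and 0.216). Of 16 necroptosis and TNF death signalling genes 4 fell and none rose. Cflar, an inhibitor of caspase-8, fell by 0.20, Birc3 and Tnfrsf1a by 0.16 and 0.14, and Casp8 was at 0.04 and did not pass. None of the 4 passed with pairs as a random effect.

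Lipid metabolism genes were lower where they changed in the fit of all libraries. Of 21 fatty acid oxidation and PPAR target genes 6 fell and none rose, with a median of -0.20. Acaa1b, a peroxisomal thiolase, was 9.45, 9.23, 10.04 and 9.84 in Atg16l1 KO and 8.63, 9.13, 8.62 and 8.67 in double KO (a log2 fold change of -0.87 ± 0.20 (SE), adjusted p = 0.00799). Ehhadh and Acsl1 fell by 0.38 and 0.29, and Hadha was at -0.16 and did not pass. Of 23 cholesterol synthesis genes 10 fell and none rose, with a median of -0.11, and the largest falls, in Hmgcs1 and Hsd17b7, were 0.22 and 0.21. None of these 16 falls passed with pairs as a random effect, and with lane as a covariate cholesterol synthesis had 3 falls and 2 rises.

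Among 20 NRF2 and antioxidant genes 6 fell and 2 rose. Nqo1, a quinone reductase, was 10.90, 11.02, 11.20 and 11.07 in Atg16l1 KO and 10.59, 10.57, 10.48 and 10.56 in double KO (a log2 fold change of -0.49 ± 0.06 (SE), adjusted p = 2.61e-04, and 0.0133 with pairs as a random effect). Srxn1 and Cbr3 fell by 0.44 and 0.43, and neither passed with pairs as a random effect (adjusted p = 0.0765 and 0.202). Hmox1, a haem oxygenase, rose by 0.50 in the fit of all libraries (adjusted p = 0.0174, and 0.0873 with pairs as a random effect), whereas the lane fit put it at 0.20 (adjusted p = 0.0757). Of 20 ATF4 and amino acid response genes 2 rose, Wars by 0.28 and Sesn2 by 0.19, and Aldh18a1 fell by 0.24, none past the threshold with pairs as a random effect (adjusted p = 0.0766, 0.21 and 0.161). In the lane fit 12 of the 20 fell and 1 rose, with a median of -0.19.

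**Figure D4:**
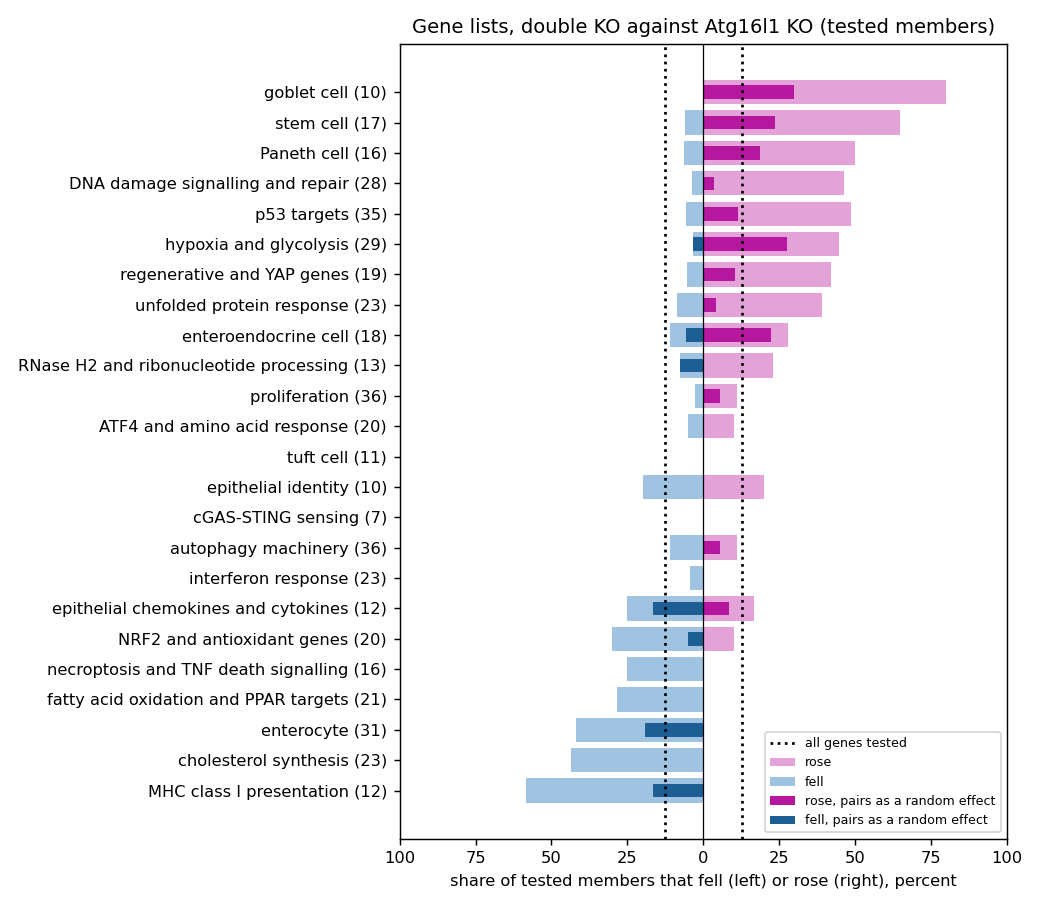
Share of tested members that rose (right) or fell (left) in double KO against Atg16l1 KO, in percent, for all gene lists but the 6 p53 genes the study names and the sex-linked and stromal lists, with the number tested in brackets, dark bars for pairs as a random effect and dotted lines for all 12804 genes (12.6% higher, 12.5% lower). Among the lists plotted, goblet cell (8 of 10) and stem cell genes (11 of 17) had the highest shares that rose, and MHC class I presentation (7 of 12) the highest share that fell.

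Genes beside the targeted loci were counted, since Akp3 is one. Within 1 Mb of Atg16l1, 4 of 23 other tested genes rose and 5 fell, and Akp3 was the 1 gene that passed with pairs as a random effect. The next in size was Arl4c, at 0.45 (adjusted p = 0.0129) and 880.7 kb away. Within 1 Mb of Rnaseh2b none of 12 rose and 4 fell, the largest in Ebpl, by 0.32. Akp3 was 8.18 ± 0.77 (SD, n = 4) in WT, and 9.41 and 9.21 in Rnaseh2b KO.

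The effect of Rnaseh2b deletion was next set against its effect where Atg16l1 was intact, Rnaseh2b KO minus WT. The study left out 2 further Rnaseh2b KO samples over read counts, so this effect rests on 2 Rnaseh2b KO libraries. Rnaseh2b itself was at -1.36 with Atg16l1 intact and -0.81 with it deleted. By limma the difference was 0.55 (adjusted p = 0.00369, and 0.0662 with pairs as a random effect), so the losses compared may be unequal. All WT libraries were in lane 1 and both Rnaseh2b KO libraries in lane 2, so lane enters Rnaseh2b KO minus WT fully. Through double KO 3 and 4, lane enters the double KO comparison in the opposite direction. Sex is also unbalanced in Rnaseh2b KO minus WT. Xist was 7.66 and 7.73 in Rnaseh2b KO, a male pattern, but 7.70, 7.69, 13.68 and 13.60 in WT 1 to 4. The difference between the effects passed the threshold in 4499 genes (35.1%), of which 2180 were positive and 2319 negative (2933 and 1778 when each library was scaled to the same total). With lane as a covariate 2580 genes passed, and with pairs as a random effect 1553.

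The 5 p53 genes of the study that rose were higher in both settings. Ano3 rose by 1.10 with Atg16l1 deleted and was at 1.001 with it intact, a difference of 0.10 ± 0.15 (SE, adjusted p = 0.627). The corresponding values were 0.71 and 0.52 for Inka2 (difference 0.19 ± 0.18, adjusted p = 0.438) and 0.47 and 0.40 for Ddit4l (difference 0.06 ± 0.12, adjusted p = 0.717). None of the 6 genes differed past the threshold between the settings in the fit of all libraries. With lane as a covariate 2 did, Inka2 (difference 0.86, adjusted p = 0.00932 by limma) and Ccng1 (difference 0.56, adjusted p = 0.00179). A difference that missed the threshold does not show that the effects are equal.

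In the fit of all libraries 3 of the 4 largest positive differences were in hypoxia genes. Hk2 was 1.25 with Atg16l1 deleted and -1.40 with it intact (difference 2.66 ± 0.16, adjusted p = 1.82e-06). Adm was 1.18 and -1.76 (difference 2.94 ± 0.29, adjusted p = 2.82e-05), and Pfkfb3 1.03 and -1.37 (difference 2.40 ± 0.17, adjusted p = 3.37e-06). The other was 2210407C18Rik, at 2.39. When lane was added to this fit, its effect being estimated from double KO alone, Hk2, Adm and Pfkfb3 were at 2.15, 1.999 and 2.08 and still passed, 2210407C18Rik was at 0.93 (adjusted p = 0.219), and Tent5c and Gm12888 were higher than these, at 3.47 and 2.77. In the hypoxia and glycolysis list 20 of 29 differences were positive past the threshold and 1 negative, and 12 were positive and 1 negative with lane as a covariate. The median difference of this list was 0.71, below those of the goblet cell (0.95) and regenerative lists (0.89).

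The 4 largest negative differences in the same fit were in Reg3a, G6pc, Bco1 and Slc5a11. Reg3a was -1.46 with Atg16l1 deleted and 2.53 with it intact (difference -3.99 ± 0.45, adjusted p = 6.49e-05). G6pc, the glucose-6-phosphatase that completes gluconeogenesis, was -0.89 and 2.16 (difference -3.05), Bco1 -1.21 and 1.67 (difference -2.89), and Slc5a11, a myo-inositol transporter, -0.30 and 2.15 (difference -2.45). When lane was added, Reg3a and G6pc still passed, at -2.92 and -1.86, whereas Bco1 was at -1.63 (adjusted p = 0.0545) and Slc5a11 at -0.84 (adjusted p = 0.12). Slc5a11 was 6.84, 6.78, 7.54 and 7.19 in Atg16l1 KO and 7.19, 7.46, 6.26 and 6.24 in double KO, so that double KO 1 and 2 lay within the range of Atg16l1 KO and double KO 3 and 4 below it. Over all 12804 genes, 2319 differences were negative and 2180 positive past the threshold in the fit of all libraries. With lane as a covariate these counts were 1361 and 1219. Of the 31 enterocyte genes, 28 differences were negative past the threshold in the fit of all libraries. With lane as a covariate 4 were, a share close to that over all genes. Of the 17 stem cell genes 9 were positive in both fits, with 1 negative in the first, and of the 10 goblet cell genes 8 were positive in the first and 5 in the second.

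**Figure D5:**
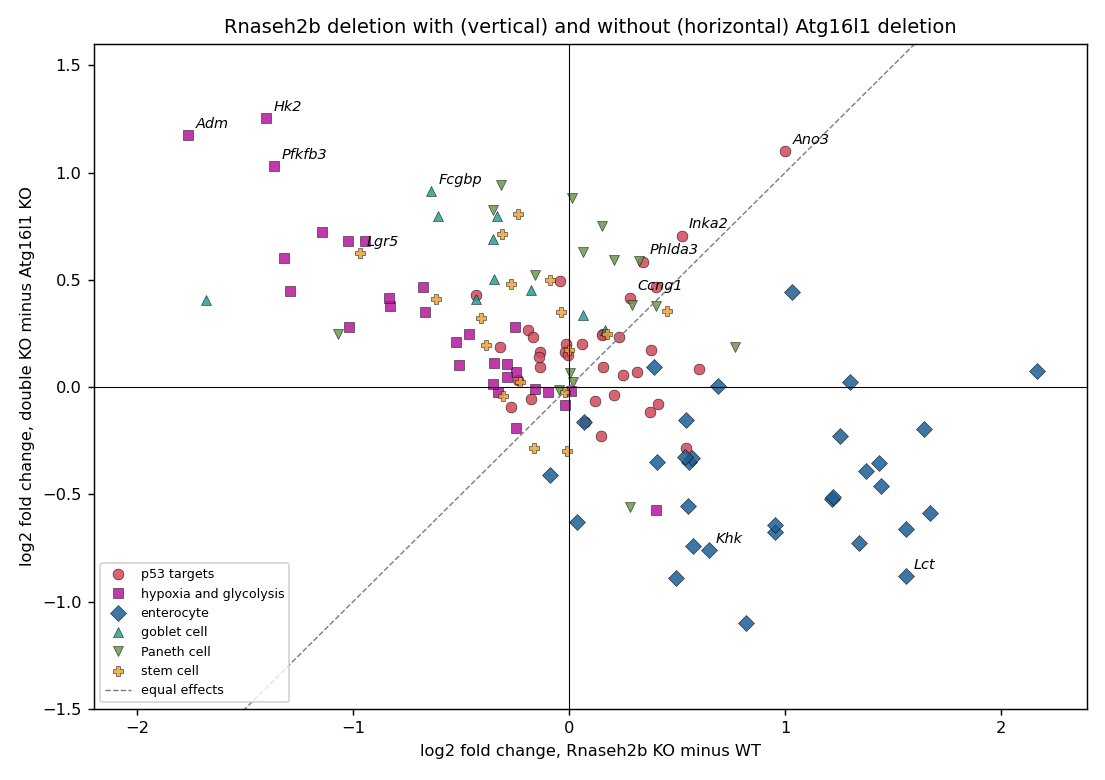
Log2 fold change of double KO minus Atg16l1 KO (vertical axis) against that of Rnaseh2b KO minus WT (horizontal axis) for the tested genes of 6 lists, with a dashed line for equal effects. Ano3, Inka2, Phlda3 and Ccng1 lie at upper right, Hk2, Adm and Pfkfb3 at upper left and Khk and Lct at lower right. Lane enters the axes with opposite signs.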

How the data were processed

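RNA from small intestinal organoids was sequenced as stranded mRNA libraries, single reads of 50 bases, on a HiSeq3000. Per the labels and the study's methods, the authors removed adapters (cutadapt), mapped to GRCm38 (TopHat2), obtained gene counts (HTSeq) and normalised and tested with DESeq2. The deposited values are normalised log2 expression per gene and library (-2.13 to 17.45, with 16.9% below 0). The transformation is not named, and low genes vary little between libraries (median SD 0.001 for means of -3 to -2, 0.151 for means of 6 to 7), so fold changes of low genes may be understated. Read depth is unknown and no counts were recovered.

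Gene symbols came from the GENCODE annotation of GRCm38 and matched 99.7% of identifiers. Genes with a mean of at least 3.32 were fitted with limma 3.58.1 (R 4.3.3) over all 14 libraries, with a mean trend and Benjamini-Hochberg adjustment, after a test on simulated data. The difference between effects was the interaction contrast. Named genes were both targeted genes, the study's p53 genes and Cdkn1a, the 12 largest rises and falls without overlap of libraries, up to 4 called genes and the highest uncalled gene of each list, the 4 largest differences of effects in each direction and sex-linked genes. Other list members named were chosen after their values were seen. The lists, like the comparison, were chosen with earlier results of these data known. Table entries were missing for some listed genes, which were not analysed here, and a few genes that the rule names are not reported here. Same-numbered double KO and Atg16l1 KO libraries deviated together in 2 of 4 cases only (correlations 0.457, -0.327, 0.0704 and 0.119), so the numbers do not pair the samples. Alternatives covered pseudocounts, filters, scaling, the libraries fitted, lane, sex, pairs and each library left out.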

Additional observations from a re-analysis of the deposited data

Results flagged for a closer look

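The 65 genes screened were those named as targets or for the size of their change, and the others given with a value in every library. In 7 of 130 groups of 4 libraries 1 library stood apart from the other 3 by Dixon's test. Chance flags about 1 in 20 groups. Atg16l1 KO 1 was high for Top1 (11.89). Atg16l1 KO 1 was low for Ankrd37 (9.21). Double KO 1 was low for Slc22a13b-ps (6.37) and Nlrc3 (6.73). Double KO 2 was high for Bst1 (7.79), Fabp1 (14.74) and Acaa1b (9.13).

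The effect of Rnaseh2b deletion with Atg16l1 deleted, minus that with Atg16l1 intact, passed the limma test of the difference itself for 50 of the 65 genes. Over all genes tested, 35.1% passed. Some of the 65 were chosen for a large change or a large difference of effects, so a higher share was built in by the choice. Values are on the log2 scale. The positive differences among targeted genes and the largest changes were Atg16l1 1.40, Rnaseh2b 0.55, 2210407C18Rik 2.39, Clu 1.80, Msln 2.18, Anxa10 2.04, Anxa1 2.12, Ly6a 1.96, Hk2 2.66, Tent5c 2.07, Gm12888 1.76, Phlda1 2.06, Adm 2.94 and Pfkfb3 2.40. The negative differences among targeted genes and the largest changes were Reg3a -3.99, Slc22a13b-ps -1.82, Myl9 -0.81, Nlrc3 -1.51, Bco1 -2.89, Zfp462 -1.04, Rnf144b -1.27, Bst1 -2.02, Fbp1 -2.10, G6pc -3.05 and Slc5a11 -2.45. The positive differences among cell type markers were Ascl2 1.04, Lgr5 1.59, Axin2 1.03, Fcgbp 1.55, Zg16 1.04, Itln1 1.26, Neurog3 1.34 and Chga 1.05. The negative differences among cell type markers were Nts -0.77, Khk -1.41, Lct -2.44 and Fabp1 -2.07. The positive differences among other gene lists were Ankrd37 1.87, Myc 1.43, Atm 0.75, Atr 0.44, Top1 0.38, Ccnd2 0.16, Atg9a 0.40 and Pdia4 0.33. The negative differences among other gene lists were Parp14 -0.997, Tap2 -0.74, Cx3cl1 -0.92, Acaa1b -1.78 and Nqo1 -0.67. When lane was added as a covariate, its effect being estimated from double KO alone, 30 of the 50 passed. Those that did not were Rnaseh2b, 2210407C18Rik, Clu, Msln, Anxa10, Anxa1, Ly6a, Myl9, Nlrc3, Bco1, Zfp462, Bst1, Slc5a11, Nts, Khk, Lct, Fabp1, Ccnd2, Pdia4 and Acaa1b, with Ly6a at 0.35 and Msln at 1.11. With pairs as a random effect the difference missed the threshold for Rnaseh2b, Clu, Msln, Myl9, Nlrc3, Zfp462, Nts, Fabp1, Ccnd2 and Zg16. Of these only Zg16 (adjusted p = 0.138 with pairs as a random effect) had passed with lane as a covariate.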

How the results depend on the processing

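The calls rested on how the dependence of library pairs was treated. Of 3218 genes past the threshold (1616 higher, 1602 lower), 478 (245, 233) remained with pairs as a random effect, and none by limma with each pair averaged, where 1943 had an unadjusted p under 0.05. Fitting only the compared groups gave 2066 (1022, 1044), lane 2 alone 2073 (1015, 1058) and a size over 1 on the log2 scale 41 (24, 17). Leaving out 1 library gave 1827 to 3470 (927 to 1743, 895 to 1727), lowest without Atg16l1 KO 3 (1827) or Atg16l1 KO 4 (1832). The 4499 differences of effects became 2580 with lane as a covariate, 1553 with pairs as a random effect, 0 with pairs averaged (2774 at an unadjusted p under 0.05) and 319 over 1, and 2704 to 4714 with 1 library left out, lowest without Rnaseh2b KO 2 (2704) or 1 (2981). With the replicate block there were 3355 and 4484 calls. With sex, read from Xist, as a covariate there were 4064 and 4461. All 3218 calls of the double KO comparison remained in that fit and in the same direction. Total scaling moved the split to 1897 higher and 1335 lower and the median of all genes to 0.02. The cause of these changes was not tested, except that averaging pairs leaves 3 residual degrees of freedom.

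Of 128 named genes, 53 lost their call with pairs as a random effect, 101 with pairs averaged and 18 with lane as a covariate, and 10 of 26 list medians moved by over 1 SD between libraries with lane as a covariate. No named gene past the threshold in the double KO comparison changed direction under any alternative run. Among named genes that did not pass, the sign turned with lane as a covariate, and equally with lane 2 alone, for Slc5a11 (0.24), Oasl1 (-0.46), Samhd1 (0.0857), Tax1bp1 (0.0398), Hspa5 (-0.0226), Casp8 (-0.0470), Aldoa (-0.15), Areg (-0.36), Gcg (0.0603) and Avil (0.0873), and with total scaling for Samhd1 (0.0046) and Avil (0.0059). With 1 library left out the ranges were -0.0631 to 0.48 for Oasl1, -0.0592 to 0.0248 for Samhd1, -0.0474 to 0.12 for Aldoa, -0.0200 to 0.41 for Areg and -0.0760 to 0.0496 for Avil. Unknown depth limits how firmly values of low genes can be read.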
